A study of Mus musculus with 2 samples.

Results

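MHC class II presentation was followed through 10 genes in single cells of mouse tumours: H2-Aa, H2-Ab1, H2-Eb1, H2-Eb2, Cd74, H2-DMa, H2-DMb1, H2-DMb2, H2-Oa and Ciita. They were taken by symbol from the 32285 genes of the deposited matrices, and each symbol had 1 row. The study compared tumours labelled Control with tumours labelled Motolimod-treated; motolimod is a small-molecule agonist of Toll-like receptor 8. Labels name 5 mice per group but deposit 1 library per group, so whether mice were pooled, the tumour model, the strain, the dose and the time are not known here. Cells were enriched for the leukocyte antigen CD45 on beads, about 30000 cells were loaded per library, and 3′ tags with unique molecular identifiers (UMIs) were counted.

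With 1 library per group no test between conditions was possible, and no p-value is given. Levels are UMIs of a gene per 1000000 UMIs of the cells summed (CPM), and ratios are motolimod to control. Intervals are 95% and exact (Poisson for a level, conditional binomial for a ratio, Clopper-Pearson for a share), and they cover counting error only, neither the spread between mice nor that between cells. A member was called higher or lower at 1.5-fold, and this was read against the share of all genes at 50 CPM or more in either library that passed the same fold in the same cells. Because 3′ tags carry no length scale, levels are compared for 1 gene across cells, not between genes.

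Class II molecules are pairs of an alpha and a beta chain that carry peptides from endosomes to the cell surface, where CD4 T cells read them. H2-Aa and H2-Ab1 encode the chains of the A molecule, H2-Eb1 the beta chain of the E molecule, and Cd74 the invariant chain that guides new molecules to endosomes. H2-DMa with H2-DMb1 or H2-DMb2 forms the DM editor that exchanges the invariant chain fragment for peptide, H2-Oa encodes the alpha chain of the DM inhibitor, and Ciita is the coactivator that switches the genes on. Dendritic cells hold these genes at high levels, and macrophages vary with interferon-gamma and tissue state.

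All 10 genes are protein-coding in GENCODE vM21 on GRCm38, the assembly that mm10 names. Ciita lies at chr16:10480059-10528418. A cluster of 8 of them lies at chr17:34092340-34341412, with H2-Aa on the minus strand and the other 7 on the plus strand.

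Ciita does not bind DNA itself but docks on factors bound at the X, X2 and Y boxes in front of these genes. RefSeq promoters (GRCm38.p6) were matched by symbol for 7 of the 10 genes; H2-Ab1, Cd74 and Ciita were not among the matches. The stretches below are shown because they carry those boxes in front of member genes; they run 5′ to 3′ on the gene's strand, stop before any annotated exon, and have matches in capitals.
H2-Eb1: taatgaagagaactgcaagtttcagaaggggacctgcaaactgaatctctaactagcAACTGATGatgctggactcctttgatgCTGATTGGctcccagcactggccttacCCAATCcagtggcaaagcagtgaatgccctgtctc
H2-Eb2: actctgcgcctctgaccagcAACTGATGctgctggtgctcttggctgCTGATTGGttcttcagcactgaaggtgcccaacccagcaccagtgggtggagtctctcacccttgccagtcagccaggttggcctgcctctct
H2-DMb2: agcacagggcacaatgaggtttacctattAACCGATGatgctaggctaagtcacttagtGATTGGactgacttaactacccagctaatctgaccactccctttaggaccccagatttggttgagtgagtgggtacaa
H2-Aa: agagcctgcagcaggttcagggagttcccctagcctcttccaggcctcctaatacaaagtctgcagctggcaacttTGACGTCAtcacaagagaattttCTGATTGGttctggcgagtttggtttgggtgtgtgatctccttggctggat
These lie at chr17:34305721-34305866 (plus strand), chr17:34325525-34325664 (plus), chr17:34145099-34145235 (plus) and chr17:34287824-34287973 (minus).

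The letters searched on both strands, in the 250 bases before each start, were AACNGATG for the X box core, TGACGTCA for the X2 element, CTGATTGG for the Y box and its inner part GATTGG, which every Y box match also contains. AACNGATG was in 1.99% of 32851 promoters and in 4 of the 7 members, GATTGG in 14.6% and in all 7, CTGATTGG in 3.83% and in 4, and TGACGTCA in 1.55% and in H2-Aa alone of the 7. An X box core followed within 40 bases by GATTGG on the same strand stood in 11 promoters of the table (0.0335%), and 4 of these were H2-Eb1, H2-Eb2, H2-DMb1 and H2-DMb2. The gap between the boxes was 21 bases in H2-Eb1 and H2-Eb2 and 22 bases in H2-DMb1 and H2-DMb2. In H2-Aa, 17 bases separated TGACGTCA from GATTGG. In H2-Oa a Y box match began 46 bases before the start, with no AACNGATG in that window. A match describes letters only. H2-Eb2 carried the same box letters at the same gap as H2-Eb1, yet the genes differed in the cells that held them most, as the levels by cell type show.

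**Figure D1:**
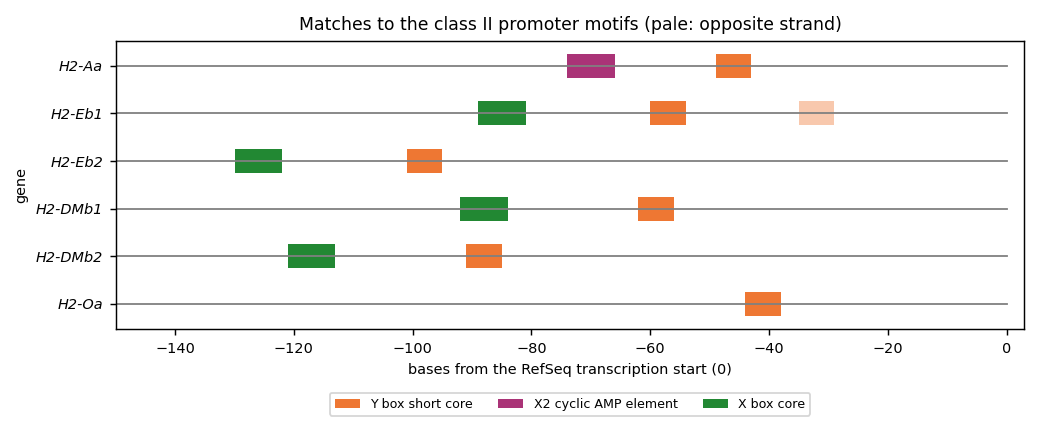
Motif matches (boxes) in the last 150 bases before the RefSeq transcription start of 6 class II genes, by distance from the start in bases. The X box core and the inner Y box are 21 or 22 bases apart in 4 genes, H2-Aa has an X2 element match and no exact match to the X core letters, and H2-Oa has the Y box match.

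Depth differed between the libraries, with 127609378 UMIs in control (8099 barcodes) and 62057685 with motolimod (10037 barcodes). After a filter on genes, UMIs and mitochondrial share, 7484 and 9314 barcodes remained. The passed barcodes had a median of 14055 UMIs in control and 3742.5 with motolimod, so shares of cells were also taken after thinning every cell to 1000 UMIs. Cells were gated by markers that included no class II gene, and the cutoffs were set after the data were seen. Barcodes with core markers of more than 1 lineage were left out (822 and 994). The libraries shared 113 barcode sequences, and without them the summed ratios were 0.762 in all macrophages and 0.358 in Cbr2 Tppp3 macrophages. The gate named epithelial or tumour also took cells with fibroblast markers such as Col1a1 and Dcn, whose share is not given here. Its cells (789 and 94) had Ptprc, which encodes CD45, at 1.86 and 5.24 CPM. Cells with little RNA of the sorting antigen were thus present after the enrichment.

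Conventional dendritic cells held the most class II RNA. Summed over the 10 genes, type 1 conventional dendritic cells (cDC1, which take up dead cells and cross-present) had 64046 CPM in control (62 cells) and 57067 CPM with motolimod (14 cells). Type 2 conventional dendritic cells (cDC2, the main primers of CD4 T cells) had 64631 CPM (49 cells) and 64418 CPM (42 cells), a ratio of 0.997 (0.982 to 1.01). Migratory dendritic cells, gated on Ccr7 and Fscn1, had 28091 CPM (98 cells) and 41960 CPM (26 cells), a ratio of 1.49 (1.46 to 1.53). Plasmacytoid dendritic cells were too few to compare, with 10 and 4 cells. Macrophages had 20844 and 15879 CPM and Ly6c2 monocytes 17476 and 12687 CPM. T or NK cells, which should hold little class II RNA in mice, stood at 1011 and 1183 CPM. Neutrophils stood at 3060.5 and 788 CPM and epithelial or tumour cells at 238 and 136 CPM. These gates thus give no single background for the sum. The order from cDC to migratory dendritic cells to macrophages was the same in both libraries.

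**Figure D2:**
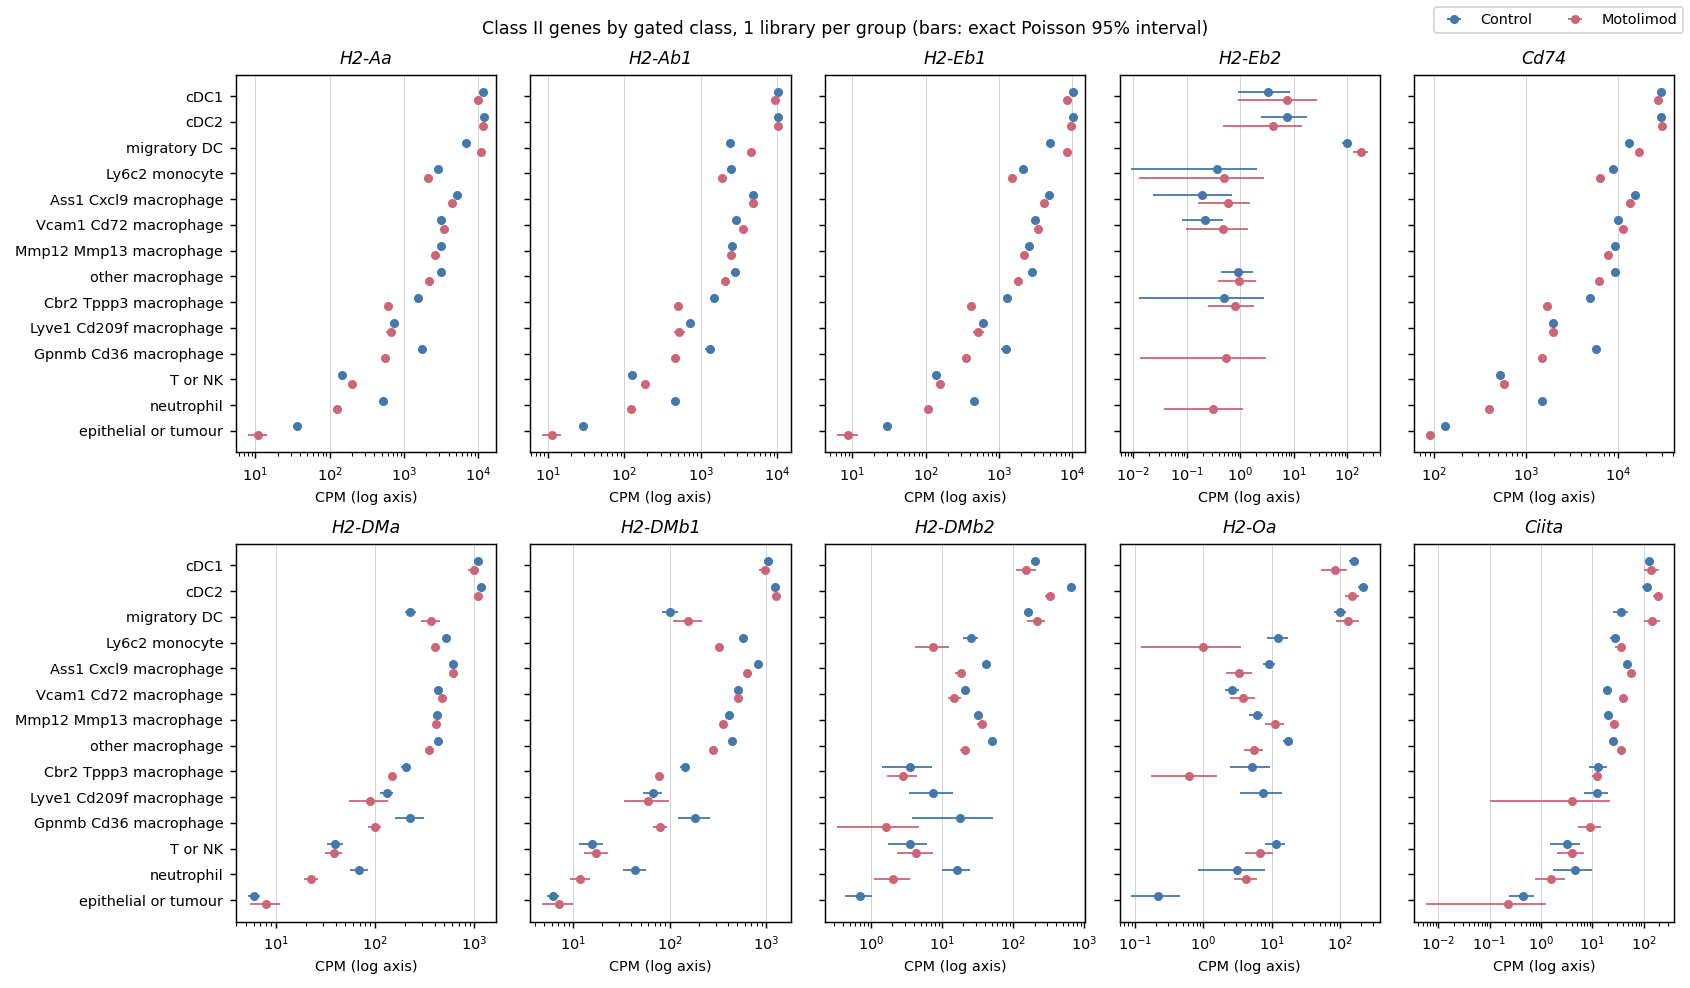
CPM of each member (log axis, own range per panel) by gated class in the Control and Motolimod libraries, with exact Poisson 95% intervals; values of 0 are not drawn. In control, cDC1 or cDC2 hold the highest point of every gene but H2-Eb2, whose highest points are those of migratory dendritic cells at 97.6 and 179 CPM; with motolimod cDC2 lead in those 9 genes.

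The chains of the A and E molecules and the invariant chain were nearly level between cDC1 and cDC2. The invariant chain gene lies apart from the others, at chr18:60803848-60812652. In control cDC1 H2-Aa stood at 11558 CPM, H2-Ab1 at 10306 CPM, H2-Eb1 at 10165 CPM and Cd74 at 29408 CPM. In control cDC2 the same genes stood at 11804, 10173, 10152 and 29117 CPM, and with motolimod at 11710.3, 10203, 9542 and 29961 CPM. The cDC2 ratios between conditions ran from 0.940 for H2-Eb1 to 1.03 for Cd74. In the 14 motolimod cDC1 the 4 genes had ratios to control cDC1 from 0.827 to 0.922. Pooled over cDC1, cDC2 and migratory cells (209 and 82 cells), the 10 genes summed to 51485 and 57359 CPM, a ratio of 1.11 (1.10 to 1.12).

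In the pooled dendritic cells 1 of 10 members, Ciita, was at least 1.5-fold higher and 0 were lower, beside 12.9% of 2858 genes higher and 5.95% lower. The median log2 ratio of the members was 0.16 and that of all genes 0.05. Another scaling, on the median ratio of genes, moved all log2 ratios in these cells by 0.12, which takes the summed ratio to 1.03 and turns the H2-Eb1 ratio from 1.08 to 0.994. The pool itself differed in makeup: migratory cells were 98 of 209 cells in control and 26 of 82 with motolimod.

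Migratory dendritic cells differed from cDC2 in the pattern of the genes as well as in level. In control, H2-Aa stood at 0.585 of its cDC2 level (0.567 to 0.605), H2-Eb1 at 0.487, Cd74 at 0.450 and H2-Ab1 at 0.237 (0.226 to 0.248). Of the UMIs of H2-Aa and H2-Ab1 together, H2-Aa took 74.2% in migratory cells, 53.7% in cDC2 and 52.9% in cDC1. With motolimod these shares were 70.7%, 53.4% and 51.5%. In macrophages, monocytes and T or NK cells the H2-Aa share was between 48.3% and 56.9% in every class and library with at least 18 cells. H2-DMa and H2-DMb1 stood lower still against cDC2, and H2-DMb2 did not. H2-DMa stood at 227 CPM in control migratory cells and 1176 CPM in cDC2, and H2-DMb1 at 101 and 1223 CPM, 0.0830 of the cDC2 level (0.0669 to 0.102), while H2-DMb2 stood at 165 and 642 CPM, 0.256 of it (0.213 to 0.307). With motolimod H2-DMa stood at 366 and 1083 CPM and H2-DMb1 at 156 and 1245 CPM, and H2-DMb2 at 214 and 328 CPM, 0.653 of the cDC2 level (0.463 to 0.905). H2-Ab1, H2-DMa and H2-DMb1 thus stood below 0.5 of the cDC2 level in both libraries. In control alone H2-Eb1, Cd74, H2-DMb2, H2-Oa (0.455) and Ciita (0.309) did as well.

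H2-Eb2, a second beta chain gene beside H2-Eb1, was largely a migratory dendritic cell transcript. It stood at 97.6 CPM (79.3 to 119) in control and 179 CPM (128 to 243) with motolimod, from 99 and 40 UMIs. In control cDC1 it stood at 3.34 CPM and in cDC2 at 7.57 CPM, and with motolimod at 7.62 and 4.0 CPM. Its control level in migratory cells was 12.9 times that in cDC2 (5.34 to 40.6). All macrophages together held 19 UMIs in control (0.296 CPM) and 20 with motolimod (0.614 CPM), and T or NK cells held none, with upper exact Poisson bounds of 1.17 and 1.23 CPM. H2-Eb1 and H2-Eb2 are alike in sequence, so the counting of reads between them is uncertain. In control the order of the dendritic subsets was opposite for the genes, with H2-Eb1 at 10152 CPM in cDC2 and 4940 CPM in migratory cells.

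H2-DMb2 and H2-DMb1, near-identical neighbours that each can pair with H2-DMa, were used in different proportions. H2-DMb2 took 61.9% (55.8 to 67.7) of the UMIs of both genes in control migratory cells, 34.4% (31.8 to 37.1) in cDC2, 16.4% (14.5 to 18.4) in cDC1 and 5.62% (5.38 to 5.87) in macrophages. With motolimod the shares were 57.8%, 20.9%, 13.7% and 4.40%, in the same order. The split rests on reads that tell the genes apart, and the authors' handling of reads that fit both is not given in the sources used here. In cDC2, H2-DMb2 stood at 642 CPM in control and 328 CPM with motolimod, a ratio of 0.511 (0.425 to 0.614), while H2-DMb1 stood at 1223 and 1245 CPM. H2-DMb2 was also the lower with motolimod in Ly6c2 monocytes (70 and 15 UMIs, ratio 0.293), Ass1 Cxcl9 macrophages (431 and 126 UMIs, 0.448) and all macrophages (1945 and 530 UMIs, 0.537). In Mmp12 Mmp13 macrophages it was not, at 31.6 and 36.7 CPM.

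H2-Oa was held mainly by dendritic cells. It stood at 217 CPM in control cDC2, 158 CPM in cDC1 and 98.5 CPM in migratory cells, and at 150 CPM, 83.8 CPM and 129 CPM with motolimod. All macrophages stood at 6.93 and 4.05 CPM, below T or NK cells at 11.4 and 6.66 CPM. Neutrophils stood at 3.07 and 4.24 CPM and epithelial or tumour cells at 0.220 and 0 CPM. These gates thus give no single background for H2-Oa. Of the UMIs of H2-Oa and H2-DMa together, H2-Oa took 30.3% and 26.1% in migratory cells, 15.5% and 12.2% in cDC2 and 1.53% and 1.06% in macrophages. In T or NK cells it took 22.4% and 14.8%.

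Ciita, the coactivator, was at least 1.5-fold higher with motolimod in cDC2, migratory cells and Vcam1 Cd72 macrophages. It did not pass that fold in cDC1 (1.10), monocytes (1.31, 0.935 to 1.84), Ass1 Cxcl9 (1.2) or Mmp12 Mmp13 macrophages (1.33), and its ratio was 0.324 in Lyve1 Cd209f macrophages, from 15 and 1 UMIs. In cDC2 it stood at 118 CPM (78 UMIs) and 190 CPM (95 UMIs), a ratio of 1.61 (1.18 to 2.20). In migratory cells it stood at 36.5 CPM (37 UMIs) and 147 CPM (33 UMIs), a ratio of 4.04 (2.45 to 6.64). In cDC1 it stood at 128 and 141 CPM. In Vcam1 Cd72 macrophages it stood at 19.3 and 39.0 CPM (528 and 245 UMIs), a ratio of 2.01 (1.72 to 2.35), while H2-Aa and Cd74 had ratios of 1.09 and 1.12. In all macrophages it stood at 24.6 and 33.3 CPM, a ratio of 1.35 (1.25 to 1.46), against 0.751 for Cd74. In Cbr2 Tppp3 macrophages the ratio was 0.940 (0.597 to 1.53), from 26 and 79 UMIs. With every macrophage weighted equally the all-macrophage ratio of Ciita was 0.980, the lowest of its alternatives, which reached 1.37.

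**Figure D3:**
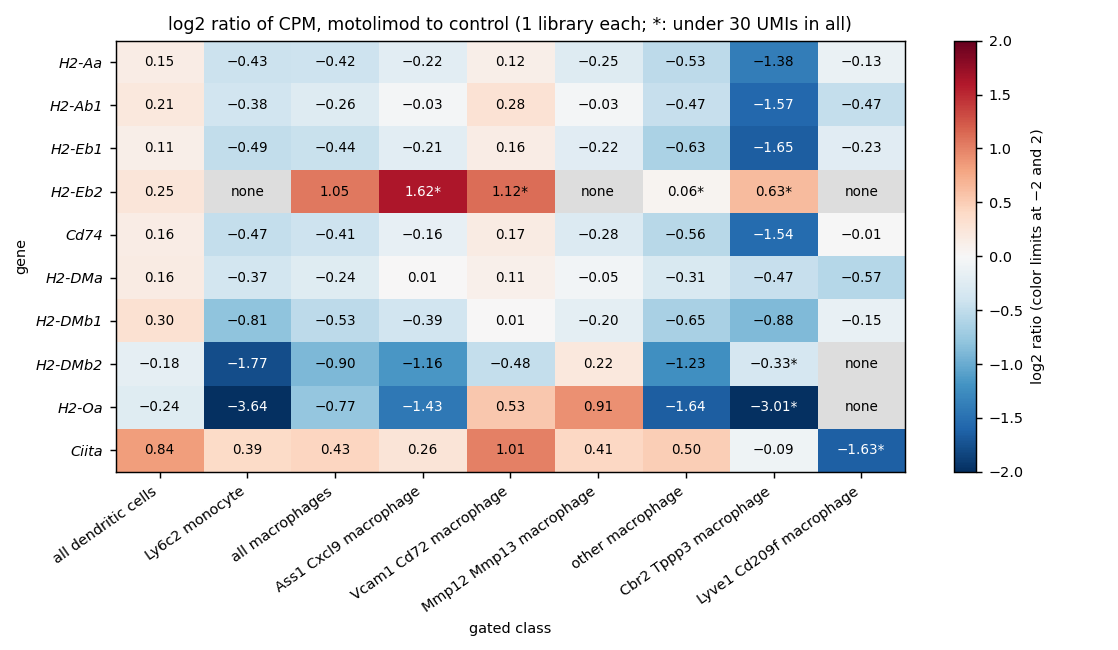
log2 ratio of CPM, motolimod to control, for each member (row) in pooled dendritic cells, monocytes and macrophage gates (columns), colored to limits of −2 and 2. Cbr2 Tppp3 macrophages hold low values for H2-Aa, H2-Ab1, H2-Eb1 and Cd74, Ciita is above 0 in 7 of the 9 columns, and starred cells rest on under 30 UMIs.

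Ly6c2 monocytes, the circulating precursors of many tumour macrophages, held less class II RNA with motolimod. H2-Aa stood at 2840.3 and 2104 CPM, H2-Ab1 at 2459.9 and 1889 CPM, H2-Eb1 at 2106 and 1502 CPM and Cd74 at 8913 and 6421 CPM. Ratios of these 4 genes were from 0.713 to 0.768. H2-DMb1 stood at 572 and 326 CPM, a ratio of 0.570 (0.519 to 0.624). In all, 3 of 9 members with a ratio were at least 1.5-fold lower (H2-DMb1, H2-DMb2 and H2-Oa), and 1 of the 6 at 50 CPM or more was, beside 6.53% of 2986 genes lower and 8.17% higher. H2-DMb2 and H2-Oa were under 50 CPM, and without that filter 13.1% of 10953 genes were lower and 18.3% higher. The median log2 ratio was −0.47 for the members and −0.05 for all genes. Ciita stood at 27.4 and 35.9 CPM. Monocytes were a mixture at the level of single cells, with a median of 37.6 class II UMIs per 10000 in control and a 90th percentile of 463, and 29.4 and 323 with motolimod.

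Macrophage states differed in class II level within each library. Gates were named by the genes that drew them. Ass1 Cxcl9 macrophages, gated on the arginine enzyme gene Ass1 and the interferon-gamma-induced chemokine gene Cxcl9, were highest at 31595 CPM in control (656 cells) and 28284 CPM with motolimod (535 cells), a ratio of 0.895 (0.890 to 0.90). Vcam1 Cd72 macrophages had 20138 CPM (1415 cells) and 22681 CPM (375 cells), a ratio of 1.13 (1.12 to 1.13). Mmp12 Mmp13 macrophages had 18455 CPM (737 cells) and 15846 CPM (312 cells), a ratio of 0.859. Lyve1 Cd209f macrophages, which carry scavenger receptors, were lowest in control at 4278 CPM (168 cells), with 3838 CPM with motolimod (53 cells). Cbr2 Tppp3 macrophages had 9654 CPM (233 cells) and 3457 CPM (1187 cells), a ratio of 0.358 (0.351 to 0.365). Gpnmb Cd36 macrophages had 18 cells in control and 353 with motolimod, where they stood at 3054 CPM. Clusters found without class II genes gave other values for some states: 0.438 for the Lyve1 Cd209f cluster (331 and 491 cells), and 0.859 and 0.240 for a pair named Mmp12 Mmp13, the latter at 14572 and 3500 CPM (61 and 561 cells).

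Between states within a library the gap was wide. H2-Eb1 stood at 4802 CPM in control Ass1 Cxcl9 macrophages and 1304 CPM in Cbr2 Tppp3 macrophages, 3.68 times as high (3.54 to 3.83). With motolimod it stood at 4154 and 414 CPM, 10.0 times as high (9.64 to 10.4). For H2-DMa the same contrast was 2.99 in control and 4.15 with motolimod, and for Ciita 3.56 and 4.54. The gates overlap: 51.4% of control and 46.5% of motolimod Ass1 Cxcl9 macrophages also passed another state gate. So did 25.8% and 24.9% of Cbr2 Tppp3 macrophages and 91.7% and 79.2% of Lyve1 Cd209f macrophages. The Lyve1 Cd209f cells had medians of Cbr2 Tppp3 genes of 16.7 and 15.1 per 10000 UMIs, beside 18.0 and 14.1 in Cbr2 Tppp3 macrophages. The states are thus ranges and not separate types. Within 1.5-fold of the cutoff lay 26 of 233 and 176 of 1187 Cbr2 Tppp3 cells. In all Cbr2 Tppp3 cells the median of Ly6c2 monocyte gate genes was 0 per 10000 UMIs in control and 1.90 with motolimod, that of Lyve1 Cd209f genes 1.56 and 0, and that of Vcam1 Cd72 genes 0.681 and 0, so other gates' genes in these cells differed between the libraries. The medians of the Ass1 Cxcl9, Mmp12 Mmp13 and Gpnmb Cd36 genes were 0 in both.

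Cbr2 Tppp3 macrophages held less class II RNA with motolimod than in control. H2-Aa stood at 1566 CPM in control and 600.3 CPM with motolimod, a ratio of 0.383 (0.365 to 0.402). H2-Ab1 stood at 1477 and 498 CPM (ratio 0.337), H2-Eb1 at 1304 and 414 CPM (0.318) and Cd74 at 4937 and 1702 CPM (0.345). The DM chains had ratios nearer 1, with H2-DMb1 at 144 and 78.1 CPM (0.542) and H2-DMa at 204 and 148 CPM (0.724). In all, 6 of the 10 members were at least 1.5-fold lower, and 5 of the 6 at 50 CPM or more were, beside 8.64% of 2987 genes lower and 9.37% higher. H2-Eb2 alone was over 1.5-fold higher, on 1 and 5 UMIs. The median log2 ratio of the members was −1.13 and that of all genes −0.01. The summed level with motolimod, 3457 CPM, was above the 1183 CPM of motolimod T or NK cells. It was also above the 788 CPM of motolimod neutrophils but near the 3060.5 CPM of control neutrophils.

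Other measures differed alongside. C1q genes, which mark tissue macrophages, stood at 12282 and 6436 CPM in these cells, neutrophil markers at 71.3 and 122 CPM, T cell markers at 23.3 and 16.4 CPM, and cycling cells made up 10.7% and 1.01%. Median depth was 6556 and 4648 UMIs per cell. The part of these in the result was not tested. With cycling cells left out the ratio was 0.314, with gates drawn on cells thinned to 2000 UMIs it was 0.501, and in a cluster found without class II genes it was 0.265 (144 and 1711 cells). That cluster stood at 25920 and 6861 CPM, above the gate in both libraries, so it held other cells than the gate.

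The cells not placed in any state (777 and 958) had 18981 and 13004 CPM, a ratio of 0.685 (0.680 to 0.690). There 4 of 10 members were at least 1.5-fold lower, 2 of the 6 at 50 CPM or more, beside 6.38% of 2992 genes lower and 9.73% higher. In Vcam1 Cd72 macrophages 2 members, Ciita and H2-Eb2 (6 and 3 UMIs), were at least 1.5-fold higher and 0 were lower, beside 3.4% and 2.16% of 2968 genes. Neither reached 50 CPM, and 0 of the 6 members at 50 CPM or more passed the fold. Without that filter 12.2% of 13361 genes were higher and 7.67% lower. In Ass1 Cxcl9 macrophages 1 was higher (H2-Eb2, 2 and 4 UMIs) and 2 were lower (H2-DMb2 and H2-Oa), with 0 of the 7 at 50 CPM or more past the fold, beside 4.46% and 2.04% of 2936 genes. In Mmp12 Mmp13 macrophages 1 of 9 was higher (H2-Oa) and 0 were lower, beside 4.93% and 2.11% of 2697 genes. H2-Oa was under 50 CPM, and without that filter 13.7% of 12713 genes were higher and 8.14% lower, so 1 of 9 is near the share of all genes. In Lyve1 Cd209f macrophages 1 of the 7 members with a ratio was lower (Ciita, 15 and 1 UMIs) and 0 were higher, beside 12.3% and 15.8% of 3026 genes. Ciita was under 50 CPM, and without that filter 18.3% of 9060 genes were lower and 23.6% higher.

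Summed over all macrophages (4004 and 3773 cells) the difference was smaller. H2-Aa stood at 3393 and 2543 CPM, H2-Ab1 at 3066 and 2553 CPM, H2-Eb1 at 3098 and 2283 CPM and Cd74 at 10268 and 7715 CPM. The summed ratio was 0.762 (0.759 to 0.764). H2-DMb2 and H2-Oa were at least 1.5-fold lower and H2-Eb2 was higher, while 0 of the 6 members at 50 CPM or more passed the fold in either direction, beside 4.29% of 2961 genes lower and 8.17% higher. The sum weights a cell by its UMIs. With every cell weighted equally 8 members were lower and the summed ratio was 0.520, with cells thinned to 1000 UMIs 7 were lower (0.526), and without cycling cells 6 were lower (0.665).

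The mix of states differed between the libraries. Cbr2 Tppp3 macrophages made up 5.82% of gated macrophages in control and 31.5% with motolimod, Gpnmb Cd36 macrophages 0.450% and 9.36%, and Vcam1 Cd72 macrophages 35.3% and 9.94%. When the motolimod level of each state was weighted by the control share of UMIs, the summed ratio was 0.943 in place of 0.762. H2-Ab1 had a ratio of 0.833 as measured and 1.02 at the control mix, H2-Eb1 0.737 and 0.927, and H2-DMa 0.846 and 0.989. H2-DMb2 was at 0.661 and Ciita at 1.52. At the control mix of states 6 of the 10 members, H2-Aa, H2-Ab1, H2-Eb1, Cd74, H2-DMa and H2-DMb1, had ratios between 0.864 and 1.02.

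Class II level was also taken by UMIs per cell. Among macrophages with 10000 UMIs or more (2922 and 1193 cells) the sum was 20857 CPM in control and 20733 CPM with motolimod, a ratio of 0.994 (0.991 to 0.998). Among those with at least 3000 and under 10000 UMIs (860 and 1823 cells) it was 21589 and 8632 CPM, a ratio of 0.40 (0.397 to 0.403). Below 3000 UMIs (222 and 757 cells) it was 7700.5 and 3339 CPM. In control the upper bins were thus about level, while with motolimod the sum was higher in each deeper bin. Of gated macrophages, 73.0% in control and 31.6% with motolimod had 10000 UMIs or more. State and depth go together in these cells, with median depths of 16455 UMIs in motolimod Vcam1 Cd72 macrophages and 4648 UMIs in Cbr2 Tppp3 macrophages, and their shares in the result cannot be told apart from these sums.

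**Figure D4:**
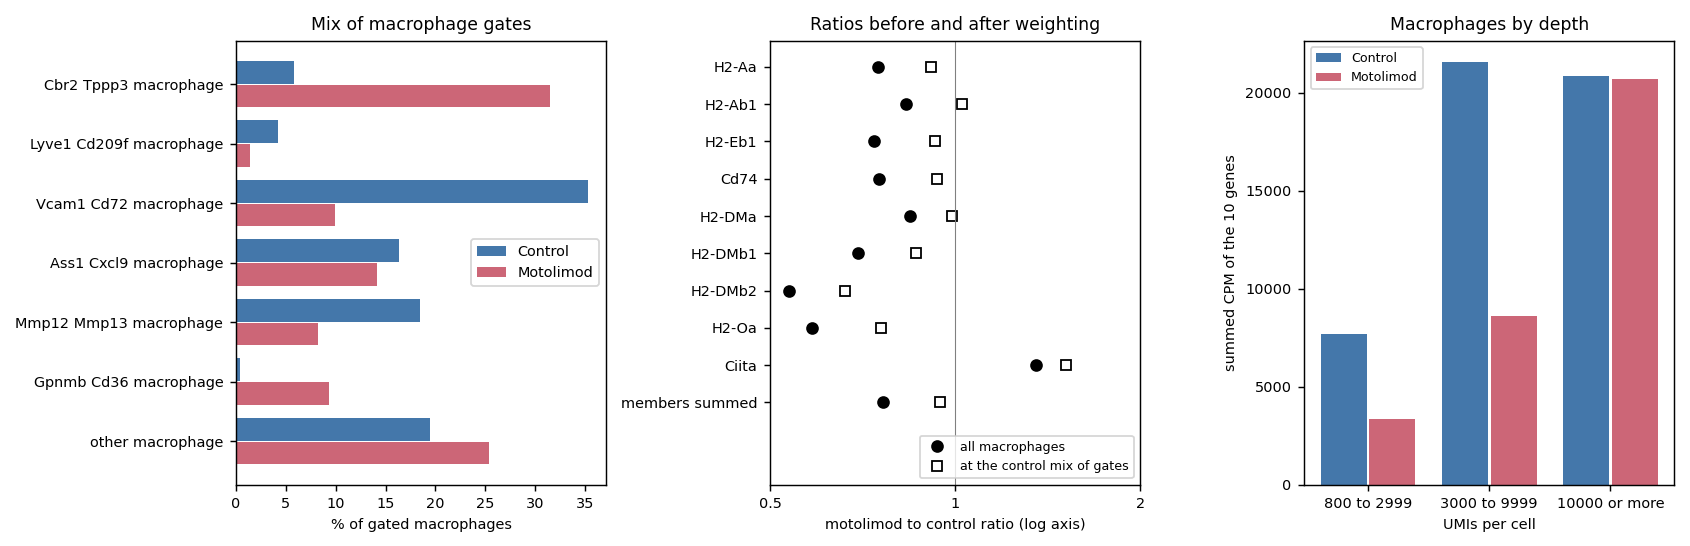
Left, percent of gated macrophages in each state gate by library; middle, motolimod to control ratio (log axis) of each member in all macrophages as measured and at the control mix of gates, H2-Eb2 left out; right, summed CPM of the 10 genes in macrophages by UMIs per cell. The ratio of the sum moves from 0.762 to 0.943 at the control mix, and the bars at 10000 UMIs or more are 20857 and 20733 CPM.

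At the level of single cells the median macrophage held 151 class II UMIs per 10000 in control and 19.4 with motolimod, while the 90th percentiles were 499 and 341. After thinning to 1000 UMIs, 60.0% (58.5 to 61.6) of control macrophages held at least 10 class II UMIs and 34.6% (33.1 to 36.1) of motolimod macrophages did, with 27 and 67 cells left out as too shallow. No class II UMI was left in 9.38% and 36.2%. For Cbr2 Tppp3 macrophages the shares with at least 10 were 29.9% and 9.62%, and for Ass1 Cxcl9 macrophages 83.6% and 80.9%. Among T or NK cells they were 1.43% and 0.637%, with median depths of 5522 and 5008 UMIs, which gives the background of this measure. All cDC1 in both libraries reached it, and 98.0% and 97.6% of cDC2 did.

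Migratory dendritic cells were spread more widely than cDC2. Their median was 118 class II UMIs per 10000 in control and 404 with motolimod, with 10th to 90th percentiles of 29.9 to 593 and 24.3 to 746. In cDC2 the medians were 682 and 673, with 10th percentiles of 290 and 296. The share of migratory cells with at least 10 of 1000 UMIs was 54.1% (43.7 to 64.2) and 76.9% (56.4 to 91.0), and these intervals overlap. Median depths of the migratory cells were alike, at 8900.5 and 8402 UMIs.

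**Figure D5:**
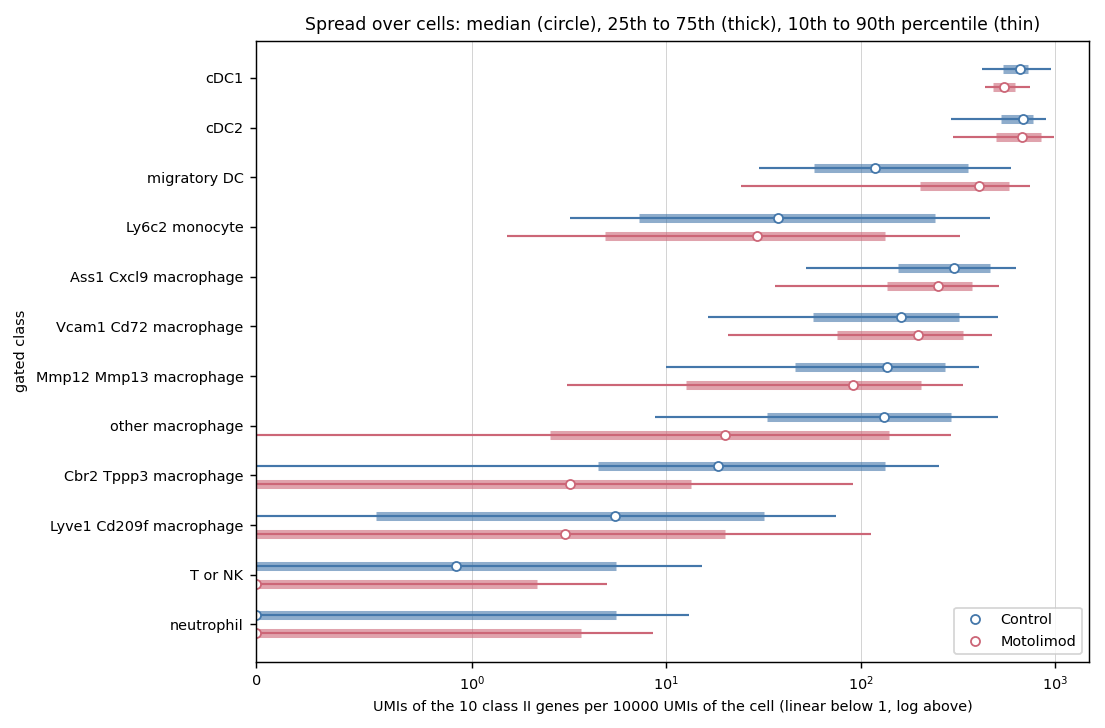
Class II UMIs per 10000 UMIs of a cell (linear below 1, log above) by gated class and library, with the median, the 25th to 75th and the 10th to 90th percentile over cells. Dendritic medians lie at 118 to 682, the Cbr2 Tppp3 median goes from 18.5 in control to 3.19 with motolimod, and T or NK and neutrophil medians are under 1.

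Members were also counted in lymphoid, neutrophil and epithelial gates. In T or NK cells 0 of 9 members with a ratio were at least 1.5-fold higher and 1 was lower (H2-Oa), beside 10.4% of 3025 genes higher and 7.31% lower. H2-Oa was under 50 CPM there. Without that filter 22.0% of 12351 genes were higher and 11.6% lower, so the count lower is near the share of all genes. In epithelial or tumour cells 0 of 8 were higher and 4 were lower (H2-Aa, H2-Ab1, H2-Eb1 and Ciita), none of these at 50 CPM or more, beside 3.21% of 2929 genes higher and 0.478% lower. Without the 50 CPM filter 18.8% of 14395 genes were higher and 5.54% lower in these cells. In neutrophils 8 of 9 were lower and 0 were higher, with 5 of 5 at 50 CPM or more lower, beside 19.4% of 2368 genes lower and 19.6% higher. Neutrophil Cd74 stood at 1495 and 393 CPM and H2-Aa at 519 and 123 CPM. The median neutrophil held 0 class II UMIs in both libraries, and 2.0% in control and 0.613% with motolimod held at least 10 of 1000 UMIs after thinning.

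The factors on which Ciita docks, the RFX complex, NF-Y and Creb1, were lowly expressed. In pooled dendritic cells 2 of these 7 genes were at least 1.5-fold higher and 0 were lower. All but 1 of the 7 were under 50 CPM, and without that filter 20.8% of 10978 genes were higher and 14.1% lower. Nfya, an NF-Y subunit, stood at 34.1 and 79.1 CPM (ratio 2.32, 1.70 to 3.16) and Rfx5, the largest RFX subunit, at 6.96 and 15.2 CPM (2.19). In all macrophages 0 of the 7 passed the fold in either direction. In Cbr2 Tppp3 macrophages Rfx5 was higher (3 and 23 UMIs) and Rfxap, another RFX subunit, lower at 33.9 and 22.1 CPM. In Vcam1 Cd72 macrophages Rfx5 stood at 3.74 and 6.04 CPM. Rfxank, the third RFX subunit, stood at 6.17 and 10.8 CPM in macrophages in no state. In the 53 motolimod Lyve1 Cd209f macrophages Rfxank, Rfxap and Creb1 passed the fold on 1, 4 and 6 UMIs.

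Of 8 genes that carry the interferon-gamma signal to Ciita, 0 passed the fold in all macrophages or in Cbr2 Tppp3 macrophages. Irf1, an interferon-induced transcription factor that acts on Ciita, stood at 93.4 and 157 CPM in Mmp12 Mmp13 macrophages (1.68). Socs1, the feedback inhibitor, stood at 164 and 88.2 CPM in pooled dendritic cells (0.540), and at 148 and 221 CPM in Ass1 Cxcl9 macrophages (1.5). Within the dendritic subsets its ratio was 0.316 in cDC2 (67 and 16 UMIs). In migratory cells it was 0.805 (0.545 to 1.16) and in cDC1 0.798 (0.544 to 1.14), not past the fold. The median log2 ratio of the 8 genes was 0.23 in all macrophages, where that of the class II genes was −0.41.

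Among 9 genes of antigen proteolysis and class II trafficking, 3 were higher and 0 lower in pooled dendritic cells, beside 12.9% and 5.95% of all genes. Ctsd, an aspartic lysosomal protease, stood at 36.2 and 104 CPM (ratio 2.89), Ctsh, a cysteine protease, at 392 and 651 CPM (1.66), and March1, the ligase that marks surface class II for turnover, at 32.4 and 54.8 CPM (1.69). In all macrophages, where 8.17% of genes were higher and 4.29% lower, Ctsd was higher at 609 and 1039.9 CPM (1.71), as in those in no state at 535 and 1008 CPM (1.88), and Ifi30, the thiol reductase of endosomes that interferon-gamma induces, was lower at 1625 and 1079 CPM (0.664). In Cbr2 Tppp3 macrophages 0 of the 9 passed, and Ctss, the protease that trims the invariant chain, stood at 1530.0 and 1819 CPM while Cd74 stood at 4937 and 1702 CPM. Of 7 costimulatory genes, 2 were lower in pooled dendritic cells, beside 5.95% of all genes, Cd80 at 91.2 and 53.8 CPM (0.590) and Cd40 at 191 and 114 CPM (0.596). Within subsets, Cd40 stood at 449 and 290.2 CPM in migratory cells but at 50 and 80.1 CPM in cDC2, and Cd80 at 185 and 107 CPM in migratory cells and 84.8 and 46.0 CPM in cDC2. In cDC1 Cd80 stood at 15 and 22.9 CPM (18 and 6 UMIs) and Cd40 at 49.2 and 26.7 CPM (59 and 7 UMIs), so the subsets did not share a direction for either gene. Cd40 was also lower in Ass1 Cxcl9 macrophages at 161 and 104 CPM (0.647) and in Mmp12 Mmp13 macrophages at 72.5 and 41.9 CPM (0.578). Icam1, an adhesion ligand of T cells, was lower in Cbr2 Tppp3 macrophages at 122 and 80.9 CPM (0.661) and in Lyve1 Cd209f macrophages at 123 and 76.2 CPM (0.620). In cDC2 Icam1 was higher, at 31.8 and 92.1 CPM (21 and 46 UMIs, 2.90). Its ratios were 0.913 in cDC1 and 0.846 in migratory cells. Of all genes, 2.04% were lower in Ass1 Cxcl9, 2.11% in Mmp12 Mmp13, 8.64% in Cbr2 Tppp3 and 12.3% in Lyve1 Cd209f macrophages. Pdcd1lg2, a ligand of the PD-1 receptor, was lower in all macrophages at 15.9 and 10.6 CPM (0.664) and in those in no state (0.597). Without the 50 CPM filter 12.6% of 15589 genes were lower in all macrophages. H2-Ob, the beta chain partner of H2-Oa, stood at 92.2 and 90.3 CPM in pooled dendritic cells and at 4.34 and 7.40 CPM in Mmp12 Mmp13 macrophages (1.71).

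Over 23 class and library pairs with at least 50 cells, the genes whose log2(CPM + 10) went most closely with the mean of H2-Aa, H2-Ab1, H2-Eb1 and Cd74 were sought among 5522 genes, as a description, since pairs of 1 library share depth and free RNA. Irf5, a transcription factor downstream of Toll-like receptors, and Cd86, a costimulatory ligand, each had a Pearson r of 0.931. Irf5 stood at 503 CPM in control cDC1, 207 CPM in control Ass1 Cxcl9 macrophages and 23.3 CPM in motolimod T or NK cells. Cd86 stood at 257 CPM in control migratory cells and 0.819 CPM in control epithelial or tumour cells. Then came Fuca1 (0.926) and Gm2a (0.913), which serve lysosomal glycan and ganglioside breakdown, Arpc2 (0.891) of the actin nucleator, Rab43 (0.891), a small GTPase, Gnai2 (0.881), a G protein subunit, and Cxcl16 (0.880), a chemokine. Of the members outside that mean, H2-DMa reached 0.975, H2-DMb1 0.938, Ciita 0.908 and H2-DMb2 0.760, while H2-Oa reached 0.506 and H2-Eb2 0.261. H2-Oa and H2-Eb2 were thus the members least alike to the main chains across these pairs. Of the dendritic subsets the pairs held only control migratory cells and control cDC1, and no cDC2. H2-Eb2 stood at 97.6 and 3.34 CPM in those subsets. In the other pairs it stood at 0.959 CPM or less, below the 10 added before the logarithm.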

How the data were processed

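The matrices were deposited as whole-number UMI counts without normalization, per the file headers. Cell Ranger made them against mm10, named as version 5.0.1 in the submitters' processing notes and 7.1.0 in the file headers. How intron reads and reads shared by near-identical genes were treated is not given in the sources used here. The barcodes and gene names accompanying the counts were used as deposited. Barcodes below 300 genes or 800 UMIs, or above 10% mitochondrial UMIs, were removed. Barcodes with core markers of 2 or more lineages (11.0% and 10.7%) were left out, no doublet caller was run, and 431 and 826 barcodes met no gate. A gate needed a minimum of marker UMIs per 10000, for example 5 for Cbr2 with Tppp3, and macrophages needed C1q genes or Csf1r, Fcgr1 and Adgre1. The cutoffs were set after seeing the data, by comparison with Leiden clusters and not on class II genes. The members and gene lists were chosen with earlier results of these data known. Named were all 10 members, pathway list genes at least 1.5-fold apart in a compared dendritic or macrophage class, and the 8 genes most alike by Pearson correlation. Some values for listed genes are not reported here. Classes with at least 50 cells in each library were compared as lists. A gene at 0 in 1 library was set to a floor of 3 UMIs per library, and no fold is given where both were under it or the floor gave no bound. The ratio code was tested on simulated counts. Python 3.11.15, scipy 1.17.1 and scanpy 1.11.5 were used.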

Additional observations from a re-analysis of the deposited data

Results flagged for a closer look

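The ratio of H2-Oa, motolimod to control, went opposite ways in different classes. It was 0.0803 (0.00935 to 0.313) in Ly6c2 monocytes, from 34 UMIs in control and 2 with motolimod, and 1.88 (1.25 to 2.79) in Mmp12 Mmp13 macrophages, from 73 and 41 UMIs. The difference between these classes was not tested, since each group has 1 library. Levels were 12.4 and 0.998 CPM in monocytes and 5.98 and 11.2 CPM in Mmp12 Mmp13 macrophages, beside 11.4 and 6.66 CPM in T or NK cells. When Leiden clusters took the place of gates, the value for Mmp12 Mmp13 macrophages was 0.307.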

How the results depend on the processing

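Summed ratios kept their direction in all 39 recomputed values for pooled dendritic cells, monocytes, all macrophages and Cbr2 Tppp3 macrophages, in that order below. The stricter cell filter gave 0.774 for macrophages. With mixed droplets kept, values were 1.15 (dendritic), 0.758 (macrophages) and 0.394 (Cbr2 Tppp3). Gates on thinned cells gave 1.34, 0.639, 0.781 and 0.501. Leiden clusters gave 1.08, 0.749 and 0.265, and no cluster was named Ly6c2 monocyte. Median-of-ratios scaling gave 1.03 and 0.733 for dendritic cells and macrophages, shifting log2 ratios by 0.12 in dendritic cells and 0.11 in Lyve1 Cd209f macrophages. Equal weight per cell gave 1.24, 0.699, 0.520 and 0.328, and thinning to 1000 UMIs gave 1.24, 0.705, 0.526 and 0.316. Of the alternatives added after seeing the data, doubled gate cutoffs gave 1.19, 0.742 and 0.249 (dendritic, monocytes, Cbr2 Tppp3), and leaving out cycling cells 1.16, 0.665 and 0.314 (dendritic, macrophages, Cbr2 Tppp3). The count of members lower in all macrophages went from 2 to 8 with equal weights, 7 thinned, 6 without cycling cells and 0 at a fold of 2. Of the 1139 other recomputed values, 1045 kept direction and 94 did not. Among those for results past 1.5-fold, a set picked for lying far from 1 in these same data, 369 of 376 kept direction. The rest were H2-Eb2 in Ass1 Cxcl9 macrophages (0.980 with gates on thinned cells, 0.360 by Leiden) and in Cbr2 Tppp3 macrophages (0.779 by Leiden, 0.956 with doubled cutoffs), H2-Oa in Mmp12 Mmp13 macrophages (0.307 by Leiden), H2-DMa in neutrophils (1.38 thinned) and Ciita in epithelial or tumour cells (1.67 without cycling cells). The cause was not tested. Subsets with under 50 cells in 1 library were not recomputed. No paired analysis was possible because each group has 1 library and the labels carry no replicate numbers, and for the same reason no library could be left out. Depth limits H2-Eb2, H2-Oa, H2-DMb2 and Ciita, which rest on few UMIs in several classes.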

Other observations

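Some cells outside the main comparison also held class II UMIs. The 10 control and 4 motolimod plasmacytoid dendritic cells had 27942 and 13998 CPM summed over the 10 genes, with Cd74 at 12771 and 8509 CPM. B cells, which present antigen to CD4 T cells, numbered 4 and 2, and the 4 control cells had 46895 CPM. Their H2-DMb UMIs were few, with 6 of H2-DMb2 and 0 of H2-DMb1 in control.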
